A study of Homo sapiens with 4 samples.

Results

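MHC class I antigen presentation genes were followed in RNA of A549 cells, a human lung adenocarcinoma line, with and without RBM10 knockdown. The genes were taken from a named list and found in the authors' expression table by Ensembl identifier, and all 9 of 9 were present among 17041 genes. They were the heavy chains HLA-B, HLA-C, HLA-E and HLA-F, the light chain B2M, the peptide transporter subunits TAP1 and TAP2, the loading factor TAPBP and the transcriptional regulator NLRC5. Other class I heavy chain genes were not analysed here. Of 3768 junction events in the authors' splicing table, 3 belonged to these genes, 2 to HLA-F and 1 to HLA-B.

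The study compared 2 libraries of A549 cells labelled RBM10 wild type with 2 libraries of A549 cells transduced with lentivirus for 1 shRNA to RBM10. RBM10 is a nuclear protein that binds RNA and acts on the choice of splice sites. Transduced cells were kept in puromycin (1 µg/mL) for 10 to 14 days and used as an enriched population. Whether the wild-type cells carried a control vector or saw puromycin is not in the labels, so the shRNA, the transduction and the selection cannot be told apart. All 4 libraries were made from poly-A selected RNA with a stranded kit and read as about 40000000 paired reads of 100 bp, and nothing says that replicates came from separate cultures, so the p-values below measure only the spread between these libraries.

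MHC class I molecules carry short peptides from the inside of the cell to its surface, where CD8 T cells read them. Proteasomes cut proteins into peptides, the TAP1-TAP2 transporter moves these into the endoplasmic reticulum, and tapasin, the product of TAPBP, holds an empty heavy chain with its light chain beta-2-microglobulin next to the transporter until a peptide fits. HLA-B and HLA-C present peptides to T cells, HLA-E mostly displays peptides cut from the leaders of other class I chains to natural killer cell receptors, and HLA-F is a less abundant, non-classical heavy chain. NLRC5 is a transactivator recruited through factors at the X and Y boxes to promoters of class I genes, such as heavy chains and B2M. NF-kB and interferon response elements lie nearby in several of these promoters.

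The promoters are shown because HLA-B, HLA-C and B2M hold several of these elements and because the libraries differ in members of the factor families that bind them. RefSeq windows (GRCh38.p14) existed for 7 of the 9 genes, and HLA-E and NLRC5 had none. The 3 sequences below run from -250 to -31 relative to the start site, 5′ to 3′ on the strand of the gene, with motif matches in capitals. HLA-B lay on the minus strand at chr6:31357210-31357429, HLA-C on the minus strand at chr6:31272123-31272342 and B2M on the plus strand at chr15:44711267-44711486.
HLA-B: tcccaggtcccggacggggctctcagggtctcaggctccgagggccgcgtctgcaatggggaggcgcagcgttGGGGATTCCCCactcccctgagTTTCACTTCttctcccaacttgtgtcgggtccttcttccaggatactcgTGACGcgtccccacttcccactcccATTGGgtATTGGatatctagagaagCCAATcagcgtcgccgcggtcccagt
HLA-C: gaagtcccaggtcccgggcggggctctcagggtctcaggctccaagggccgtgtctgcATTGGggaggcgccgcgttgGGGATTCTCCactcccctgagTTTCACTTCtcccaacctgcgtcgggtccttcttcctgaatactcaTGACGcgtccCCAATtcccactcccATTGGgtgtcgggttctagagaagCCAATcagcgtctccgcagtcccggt
B2M: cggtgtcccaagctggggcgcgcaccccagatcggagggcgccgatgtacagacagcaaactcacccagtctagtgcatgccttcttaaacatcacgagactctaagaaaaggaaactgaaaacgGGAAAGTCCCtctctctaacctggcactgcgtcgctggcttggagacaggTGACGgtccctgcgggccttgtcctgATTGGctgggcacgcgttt
The capitals mark the Y box core (ATTGG), the core of the X2 box, which resembles a cyclic AMP response element (TGACG), an interferon response core (GAANNGAAA) and the NF-kB motif, each searched on both strands. In HLA-B the X2 core stood at -106 to -102 and in HLA-C at -105 to -101, and in each an NF-kB match and an interferon response core lay upstream of it in the same order. HLA-B held 2 overlapping NF-kB positions, each read on both strands, and these are 1 capital block above. In B2M the X2 core stood at -75 to -71 and a Y box at -49 to -45, with an NF-kB match at -125 to -116. No interferon response core was matched in B2M, but the pattern allows a single spacing. The B2M stretch gaaactgaaa, just upstream of the NF-kB match, has a wider gap and was not searched for. A window without a match can thus still hold an interferon response element.

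The Y box core was in 5 of the 7 windows and in 32.0% of 35116 RefSeq windows of the same 250 bases. For TAP1 only the outermost window was counted, and a further window at chr6:32852762-32853011 held no match, while the shares over all windows count every window of a gene. The X2 core was in 4 of 7 and in 21.2% of all windows, the interferon response core in 3 of 7 and in 6.56%, and the NF-kB motif in 5 of 7 and in 5.21%. The motifs were chosen with these sequences in view, so the shares describe the windows and are no test of enrichment. The NF-kB match of TAP1 lay at -72 to -63 and that of TAPBP at -56 to -47. The stretch around the TAP1 match, at chr6:32853757-32853786 on the minus strand (-82 to -53), is shown because this start site lies back to back with that of PSMB9, whose level differed between the groups.
TAP1: gcctgttcctGGGACTTTCCgagagccccg
A match is a run of letters and not a measured site, and no binding data were analysed here.

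The shRNA target was lower in both knockdown libraries. RBM10 was at 35.5 and 40.8 RPKM (a read count divided by the length of the gene and the depth of the library) in wild type against 11.6 and 10.9 RPKM in knockdown, or 29.5% of the wild-type mean. Relative depth, read from the steps between low values, ran from 84.5% in knockdown replicate 1 to 100% in wild-type replicate 2, and 9502 to 10113 genes per library reached 1 RPKM. Epithelial markers, which fit the labelled line, were summed at 1228 and 1357 RPKM in wild type against 2448 and 2549 RPKM in knockdown, with 4 of 5 measured (KRT8, KRT18, KRT19 and EPCAM) higher by the test. Immune cell markers were summed at 1.93 and 2.29 RPKM in wild type against 4.16 and 4.14 RPKM in knockdown. Among them CD68 was the only one tested and was higher, while PTPRC, CD3E, CD3D, CD4, MS4A1 and NKG7 had no row in the table used here. Fibroblast markers were summed at 0.570 and 0.843 RPKM in wild type against 2.12 and 2.02 RPKM in knockdown. Most of that was THY1, the only one tested, which was higher (0.660 to 1.82 RPKM, limma adjusted p = 0.0016). THY1 entered the test only because its knockdown mean reached 1 RPKM, so its call is not support for the fibroblast markers. The 1 endothelial marker present did not exceed 0.0130 RPKM in any library. The part of these marker differences in the results below was not tested, and in bulk RNA fewer cells of a type and less RNA per cell cannot be told apart.

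Of the 9 genes, 2 rose in RBM10 knockdown, both heavy chains: HLA-B to 160% and HLA-E to 145% of the wild-type mean. None fell. Expression was compared with limma on log2(RPKM + 1) over 10182 genes with a group mean of 1 RPKM or more, and a gene passed at a Benjamini-Hochberg adjusted p under 0.05. Over all genes tested, 22.3% passed, 15.3% as higher and 7.03% as lower, so 2 of 7 tested genes lay near that background. Over all 9 genes, tested or not, the median log2 ratio of the group means was 0.27, against 0.12 over the 17041 genes of the table, a description of the list and not a test of it. TAP2 and NLRC5 were under the filter in both groups and were not tested. The split of all calls moved with the scaling, from 1555 higher and 716 lower to 1140 and 1031 with quantile normalization and to 1277 and 1240 with median centring, while HLA-B and HLA-E passed as higher under each.

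HLA-B, which presents peptides to CD8 T cells, spans 6:31269491-31357188 in hg38 (GENCODE v29, minus strand). On the same strand that span overlaps HLA-C, WASF5P, LINC02571, AL671883.1 and MIR6891, since the annotated transcript HLA-B-258 reaches into HLA-C. Whether the HLA-B values hold reads of the more abundant HLA-C was not tested. HLA-B was at 3.74 and 4.34 RPKM in wild type and 6.81 and 6.10 RPKM in knockdown. Both knockdown libraries lay above both wild-type libraries, at 4.04 ± 0.429 and 6.46 ± 0.506 RPKM (mean ± SD, n = 2 each). The log2 change was 0.57 (SE 0.12, 95% confidence interval 0.30 to 0.83, limma adjusted p = 0.0084). Without knockdown replicate 1 the adjusted p was 0.0497, and with no filter on low values it was 0.0508, which ends the call.

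HLA-E, the ligand of the CD94-NKG2 receptors, spans 6:30489467-30494205 on the plus strand, where no other annotated gene overlaps it. It stood at 15.9 and 18.9 RPKM in wild type against 25.9 and 24.6 RPKM in knockdown. The groups did not overlap, with means of 17.4 ± 2.12 and 25.2 ± 0.919 RPKM (SD, n = 2 each). The log2 change was 0.51 (SE 0.11, 95% confidence interval 0.26 to 0.77, limma adjusted p = 0.0099), and with no filter the adjusted p was 0.0517, which again ends the call.

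HLA-C, which presents peptides to T cells and is read by killer cell immunoglobulin-like receptors, did not pass the test. It spans 6:31268749-31272130 on the minus strand and was at 18.5, 21.5, 25.9 and 22.1 RPKM in wild type (replicates 1, 2) and then knockdown (replicates 1, 2). The lower knockdown library stood close to the higher wild-type library. The means were 20.0 ± 2.11 and 24.0 ± 2.66 RPKM, and the log2 change of 0.25 had a 95% confidence interval from -0.01 to 0.52 (limma adjusted p = 0.158), an interval that holds 0 and ends below the change measured in HLA-B. The change was 0.15 without wild-type replicate 1 and 0.14 without knockdown replicate 1, against 0.36 without either of the other libraries.

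HLA-F, at 6:29722775-29738528 on the plus strand, was the heavy chain at the lowest level. It was at 0.817 and 1.12 RPKM in wild type against 1.40 and 1.27 RPKM in knockdown, and it passed the filter only through the knockdown group. Its log2 change was 0.25 (SE 0.12, limma adjusted p = 0.165). The change moved with the settings, to 0.073 with quantile and 0.082 with cyclic loess normalization, to 0.14 without wild-type replicate 1 and to 0.44 with a pseudocount of 0.1, and passed in none of them. It overlaps HLA-F-AS1, AL645939.1 and RPL23AP1 on the opposite strand, and for these values the use of strand in counting is not stated. HLA-B (USP8P1, RPL3P2, AL671883.2), TAP1 (PSMB9, PSMB8-AS1) and NLRC5 (AC023825.1, AC023825.2) also have annotated partners on the opposite strand.

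The summed level of the 4 heavy chains was 38.9 and 45.8 RPKM in wild type and 60.0 and 54.1 RPKM in knockdown. HLA-C gave the largest share of that sum in 3 of 4 libraries, 47.5% and 46.8% in wild type against 43.2% and 40.9% in knockdown. HLA-E went from 40.8% and 41.3% to 43.1% and 45.5%, and in knockdown replicate 2 it held the larger share. HLA-B contributed 9.59% and 9.48% in wild type and 11.4% and 11.3% in knockdown.

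In all 4 heavy chains and in TAPBP, wild-type replicate 2 lay above replicate 1 and knockdown replicate 1 lay above replicate 2. That order was seen in 3105 of 10182 tested genes (30.5%). B2M had the reverse order, as did 39.7% of tested genes. The differences between replicates were thus shared by the heavy chains, which are not independent readings of the comparison.

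**Figure D1:**
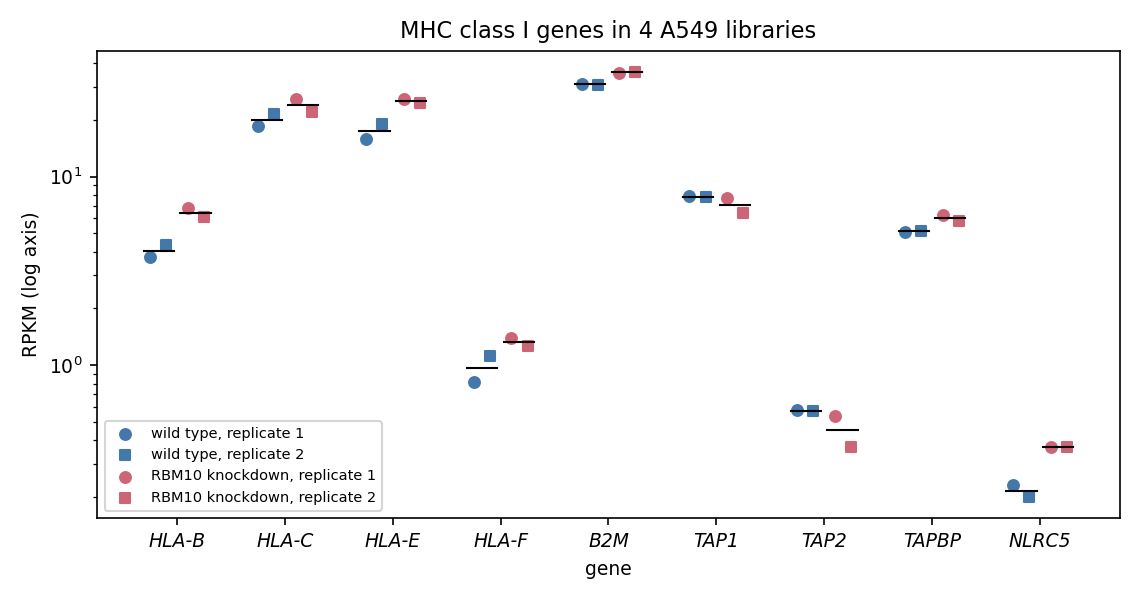
RPKM of the 9 MHC class I antigen presentation genes on a log axis, with 1 point per library (circles replicate 1, squares replicate 2, blue wild type, red RBM10 knockdown) and a black line at each group mean. Knockdown libraries lie above wild-type libraries in 7 genes, with HLA-B at 6.10 and 6.81 against 3.74 and 4.34, and below them in TAP1 and TAP2.

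B2M encodes the light chain that pairs with class I heavy chains. It lies at 15:44711487-44718877 on the plus strand and was the most abundant of the 9 genes per length. Its values were 31.0 and 30.7 RPKM in wild type and 35.6 and 35.9 RPKM in knockdown. The groups did not overlap and replicates lay close together (30.8 ± 0.229 and 35.7 ± 0.223 RPKM, n = 2 each), but the log2 change of 0.21 (95% confidence interval -0.0049 to 0.42) did not pass the test (limma adjusted p = 0.15), and was 0.13 with median centring. The ratio of B2M to the summed heavy chains was 0.796 and 0.669 in wild type and 0.593 and 0.664 in knockdown, so wild-type replicate 2 and knockdown replicate 2 were nearly equal on that ratio.

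TAP1 and TAP2, the subunits of the peptide transporter, were the 2 genes with lower means in knockdown. TAP1 lies at 6:32845209-32853978 and TAP2 at 6:32821833-32838780, both on the minus strand. TAP1 was at 7.85 and 7.81 RPKM in wild type against 7.71 and 6.44 RPKM in knockdown. Knockdown replicate 1 was close to wild type and replicate 2 was lower, and the log2 change of -0.13 (95% confidence interval -0.40 to 0.13) did not pass the test (limma adjusted p = 0.454). It was -0.25 without knockdown replicate 1, -0.02 without knockdown replicate 2 and -0.21 with median centring. TAP2 was at 0.577 and 0.572 RPKM in wild type against 0.540 and 0.371 RPKM in knockdown, a low level at which it was not tested. With no filter its log2 change was -0.12 (limma adjusted p = 0.401). TAP1 exceeded TAP2 per length by 13.6 and 13.7 times in wild type and by 14.3 and 17.4 times in knockdown. For TAP2, 35.2% of the windows of 100 bases along its transcript were shared with another gene of the annotation. That share was 0.60% or less for each of the other 8 genes. The annotated gene AL669918.1 overlaps TAP2 on the same strand, and whether the shared windows lie in it was not tested. The TAP2 value is uncertain if reads in shared windows were split between genes or left out.

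The TAP genes share a locus with the immunoproteasome genes PSMB8 and PSMB9, which encode subunits that replace the constitutive proteolytic sites and change which peptides are cut. The 4 genes lie within 37753 bp, in the order TAP2, PSMB8, TAP1 and PSMB9, and the RefSeq starts of TAP1 and PSMB9 are 488 bp apart and point away from each other. PSMB9 was at 10.3 and 11.4 RPKM in wild type against 2.59 and 3.60 RPKM in knockdown. It fell by 1.55 on the log2 scale (SE 0.14, limma adjusted p = 6.5e-05), while TAP1, across the shared start region, was called in neither direction. PSMB8 was at 4.21, 4.76, 5.50 and 4.79 RPKM in wild type (replicates 1, 2) and then knockdown (replicates 1, 2), and did not pass the test.

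Ratios within the libraries give the balance of the locus. PSMB9 to TAP1 was 1.31 and 1.46 in wild type and 0.335 and 0.559 in knockdown. PSMB8 to PSMB9 was 0.408 and 0.417 in wild type and 2.13 and 1.33 in knockdown. PSMB9 was thus above both neighbours in wild type and below both in knockdown. Annotated PSMB9 overlaps TAP1 on the opposite strand, so with counting that ignored strand either value could hold reads of the other gene.

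**Figure D2:**
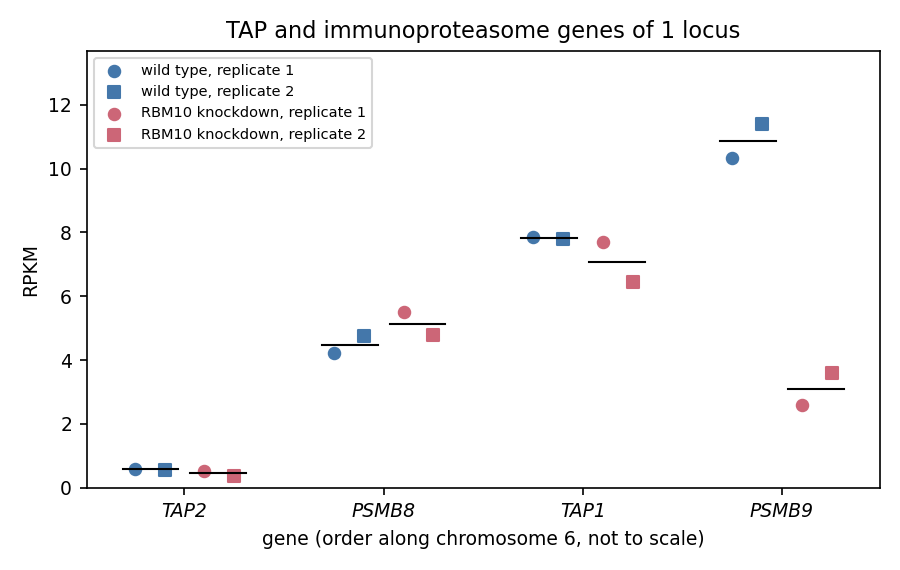
RPKM of TAP2, PSMB8, TAP1 and PSMB9, in their order along chromosome 6, with 1 point per library (circles replicate 1, squares replicate 2, blue wild type, red RBM10 knockdown) and a black line at each group mean. PSMB9 is at 10.3 and 11.4 in wild type and at 2.59 and 3.60 in knockdown, while TAP1 lies between 6.44 and 7.85 in all 4 libraries.

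TAPBP encodes tapasin, which bridges empty class I molecules to the transporter and edits their peptides. It lies at 6:33299694-33314387 on the minus strand and was at 5.10 and 5.17 RPKM in wild type against 6.27 and 5.82 RPKM in knockdown. The groups did not overlap, and the log2 change of 0.20 (SE 0.11) did not pass the test (limma adjusted p = 0.226), and was 0.13 with quantile normalization and 0.12 with median centring.

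NLRC5, the class I transactivator, lies at 16:56989485-57083531 on the plus strand and was the gene with the lowest level of the 9. It was at 0.232 and 0.201 RPKM in wild type against 0.368 and 0.367 RPKM in knockdown, or 170% of the wild-type mean. Both knockdown libraries were above both wild-type libraries, but the gene was not tested, and with no filter its log2 change of 0.17 (SE 0.04) had a limma adjusted p of 0.0705. Genes at such levels (means of 0.1 to 0.5 RPKM) had a median of 0.39 for the log2 ratio of group means, and 71.4% of these 3057 genes had the higher mean in knockdown. Among the 2722 genes at 10 to 50 RPKM, where HLA-C, HLA-E and B2M lie, 43.5% had the higher mean in knockdown and the median log2 ratio was -0.04.

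By level per length the order in wild type was B2M, HLA-C, HLA-E, TAP1, TAPBP, HLA-B, HLA-F, TAP2 and NLRC5. HLA-C and HLA-E overlapped in wild type, so their order there is within the spread, and in knockdown the order was B2M, HLA-E, HLA-C, TAP1, HLA-B, TAPBP, HLA-F, TAP2 and NLRC5. In knockdown HLA-E and HLA-C overlapped again, and HLA-B overlapped both TAP1 and TAPBP. No other neighbours overlapped in either group. Knockdown and wild-type libraries did not overlap in any of the 9 genes, 7 with knockdown higher and 2 with knockdown lower. With 2 libraries a group this is common: 35.8% of the 17041 genes had no overlap with knockdown higher and 20.3% with knockdown lower, 56.1% in all.

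Genes of the surrounding pathway were read from lists. Over all genes tested, 15.3% rose and 7.03% fell, which is the background for the count of each list. Of 11 genes that supply peptides (proteasome subunits, proteasome activators, an assembly factor and cytosolic peptidases), none rose and 4 fell, with a median log2 change of -0.22 over 11 tested. Beside PSMB9 these were PSME2, a subunit of the PA28 activator (79.7 to 59.9 RPKM, log2 change -0.41, limma adjusted p = 0.0128), POMP, a proteasome assembly chaperone (89.2 to 68.8 RPKM, log2 change -0.37, limma adjusted p = 0.0289), and PSME3, the PA28 gamma subunit (39.3 to 31.5 RPKM, log2 change -0.31, limma adjusted p = 0.0484). The count rests on single libraries: it was 2 without wild-type replicate 1 and 1 without knockdown replicate 1, and it was also 2 with no filter, with quantile normalization and with cyclic loess normalization. Of 12 genes for loading and trimming of peptides, 9 were tested and none passed, with a median log2 change of -0.20. CALR, the chaperone calreticulin, was at 211 and 181 RPKM (limma adjusted p = 0.108), and GANAB, which trims the glycan of new glycoproteins, was at 140.1 and 139.9 RPKM. Genes at 50 RPKM or more, such as PSME2, POMP, CALR and GANAB, had a median log2 ratio of group means of -0.10. Of these genes 30.7% had the higher mean in knockdown, so lower values were common at that level.

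Among 13 genes that regulate class I promoters, 11 were tested and 1 passed. ATF1, a factor of the cyclic AMP response family, rose from 8.94 to 12.3 RPKM (log2 change 0.42, limma adjusted p = 0.0167). The call was lost without knockdown replicate 1 (adjusted p = 0.116) and without knockdown replicate 2 (adjusted p = 0.0834). USF2 and RFXANK, the most abundant of the list by the mean of all 4 libraries, were at 34.9 and 36.2 RPKM and at 16.8 and 15.3 RPKM in wild type and knockdown, and neither passed. Of the 5 NF-kB subunits, 4 were tested and 2 fell, NFKB2 from 37.3 to 15.1 RPKM (log2 change -1.25, limma adjusted p = 4.7e-05) and RELB from 10.6 to 5.36 RPKM (log2 change -0.87, limma adjusted p = 0.00081). NFKB2 and RELB encode the partners of the non-canonical NF-kB dimer. HLA-B and HLA-E were thus higher in the same libraries in which these 2 subunits were lower, and any link between them was not tested.

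Of 13 genes for interferon receptors and signalling, 12 were tested, 2 rose and 2 fell, with a median log2 change of -0.00. STAT2 (2.69 to 5.20 RPKM, log2 change 0.74) and IRF9 (2.64 to 4.72 RPKM, log2 change 0.65), both subunits of the interferon-activated factor ISGF3, were higher. JAK1, a receptor-bound kinase (48.8 to 35.8 RPKM, log2 change -0.44), and SOCS3, a feedback inhibitor of cytokine signalling (1.85 to 0.898 RPKM, log2 change -0.58), were lower. The JAK1 call was lost without wild-type replicate 1 (adjusted p = 0.10) or knockdown replicate 1 (adjusted p = 0.218), and with quantile (adjusted p = 0.0537) or cyclic loess normalization (adjusted p = 0.0602). That of SOCS3 was lost without wild-type replicate 2 (adjusted p = 0.0933). SOCS3 passed the filter only through the wild-type group, where it was higher, so its call is not support for the list. With no filter on low values 1 gene of the list passed.

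Of 26 interferon-stimulated genes, 22 were in the table but only 8 were tested. ISG15, a ubiquitin-like modifier, rose from 0.879 to 3.11 RPKM (log2 change 1.10, limma adjusted p = 0.0023) and IFI6 from 7.48 to 10.9 RPKM (log2 change 0.49, limma adjusted p = 0.0132), while OAS1, which senses double-stranded RNA, fell from 4.74 to 3.06 RPKM (log2 change -0.50, limma adjusted p = 0.0144). The median log2 change of the 8 was -0.04. Over all 22 the median log2 ratio of the group means was 0.48, with 13 genes higher and 3 lower without overlap of the groups. Of the 17041 genes of the table, 35.8% were higher and 20.3% lower in knockdown without overlap. Most of the 22 lay under 1 RPKM, where ratios above 0 were common in the table. With no filter on low values none of the 3 passed (limma adjusted p of 0.0546, 0.0514 and 0.0658). ISG15 passed the filter only through the knockdown group. The IFI6 call was lost without knockdown replicate 1 (adjusted p = 0.110) and the OAS1 call without knockdown replicate 2 (adjusted p = 0.136).

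Of 11 MHC class II genes, 6 were in the table and only HLA-DMA reached the filter, at 1.10 and 1.11 RPKM. Its direction changed with the scaling. CIITA, the class II transactivator, HLA-DRA, HLA-DPB1, HLA-DQA1 and HLA-DQB1 had no row in the table used here. HLA-DMB, the partner of HLA-DMA, was at 0.670 and 0.963 RPKM and was not tested.

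Of 14 class I-like molecules and ligands of the NKG2D receptor of natural killer cells, 13 were in the table, 9 were tested, 5 rose and none fell. Over all genes tested, 15.3% rose and 7.03% fell. Over all 13 the median log2 ratio of the group means was 0.76, with the higher mean in knockdown in 10 and in wild type in 3. Ratios above 0 were common at low levels. The median over the table was 0.26 at 0.5 to 1 RPKM, where RAET1E lies, and 0.18 at 1 to 2 RPKM, where ULBP2 lies. ULBP2 went from 0.602 to 2.89 RPKM (log2 change 1.28, limma adjusted p = 6.4e-05), RAET1G from 1.96 to 4.69 RPKM (log2 change 0.94), RAET1E from 0.331 to 1.49 RPKM (log2 change 0.91) and MICB from 1.72 to 3.13 RPKM (log2 change 0.61), all NKG2D ligands. FCGRT, the class I-like heavy chain of the neonatal Fc receptor, which also pairs with B2M, went from 5.70 to 9.67 RPKM (log2 change 0.67, limma adjusted p = 0.0026). ULBP2 and RAET1E were under 1 RPKM in wild type and passed the filter only through the knockdown group, so the count of 5 is not support for the list.

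**Figure D3:**
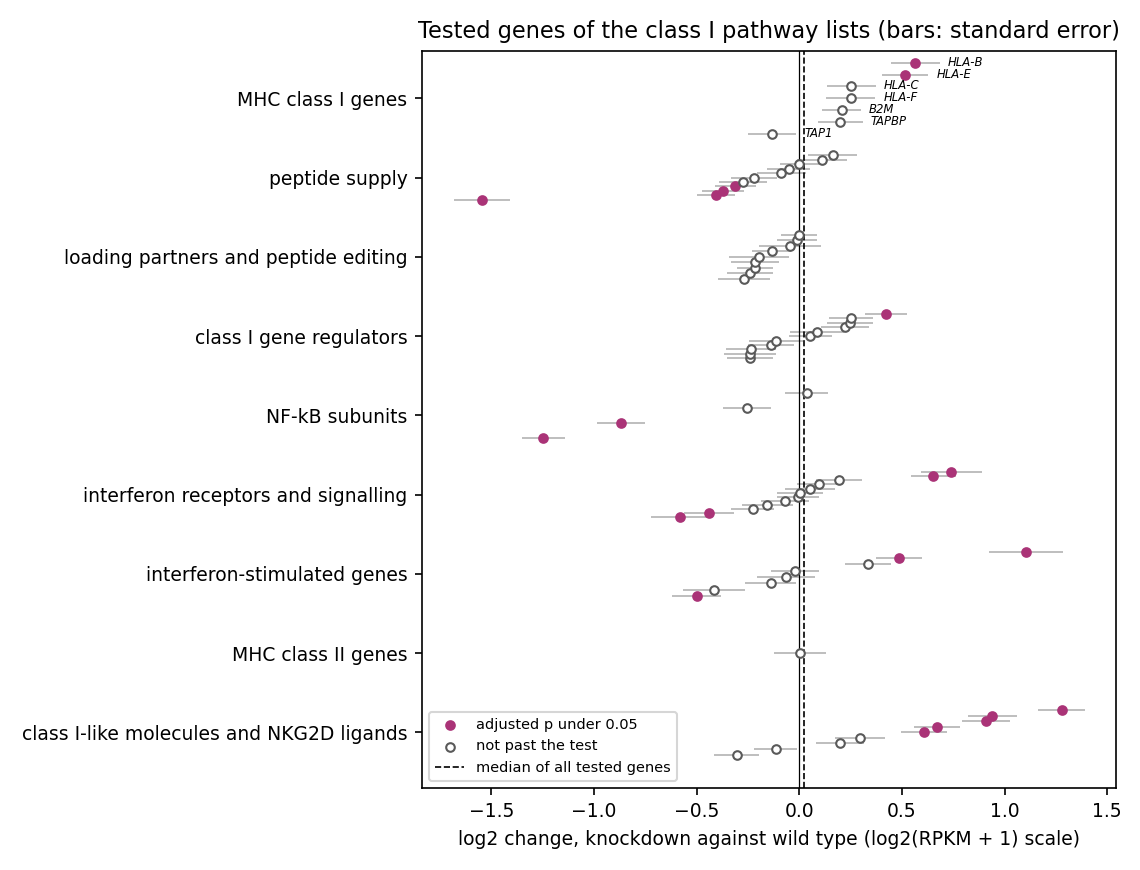
Log2 change (knockdown against wild type, log2(RPKM + 1) scale) of each tested gene of the 9 lists, with bars for 1 standard error; filled points passed at an adjusted p under 0.05, and the dashed line is the median of all tested genes, 0.02. HLA-B and HLA-E lie at 0.57 and 0.51, PSMB9 at -1.55, and 5 of the 9 tested class I-like molecules and NKG2D ligands are filled, all to the right.

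The tested genes whose profile over the 4 libraries was nearest to the mean profile of the 7 tested class I genes were DALRD3, CC2D1A, NADSYN1, TMEM120A and OCIAD2, at Euclidean distances of 0.0086, 0.0118, 0.0190, 0.0208 and 0.0217 between centred log2 values. None of these 5 passed the test. The distances rest on 4 libraries and describe likeness only.

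The 3 junction events of the class I genes were all annotated as trans-splicing in the authors' table, an annotation that 38 of its 3768 events carried. In each of the 3, the percent spliced in (PSI) of a junction within the gene was read beside a background junction that joined the gene to a related class I gene on the same chromosome. None of the 3 passed the test, limma on PSI fractions with a threshold of 0.05 for the adjusted p and of 0.1 for the difference. Over all 3744 events tested, 0.107% passed, and 18.4% had an unadjusted p under 0.05 with that difference, a rule that none of the 3 met either. The background junctions were in none of the annotated transcripts of GENCODE v29, while the examined junctions were in 9 and 6 HLA-F transcripts and in 4 HLA-B transcripts.

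In HLA-B the examined junction joined exon 4 to exon 5 (6:31355317 to 6:31355223). The background junction joined exon 2 of HLA-B at 6:31356688 to exon 3 of HLA-C at 6:31271348, with 85339 bp between. It shares no splice site with the examined junction, so this PSI is not a choice between alternative ends. The PSI of the examined junction was 11.0% and 10.4% in wild type and 26.9% and 26.0% in knockdown. The groups did not overlap and replicates lay close together (10.7% ± 0.438 and 26.5% ± 0.659, SD, n = 2 each). The difference was 15.7 percentage points (95% confidence interval -4.31 to 35.8, limma adjusted p = 0.294), with an error that draws on the spread over all events. Of all tested events, 53.5% had groups that did not overlap with a difference of 0.1 or more, and the table lists only events with a spread of at least 0.15.

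The starts of the exons that the background junction joins or skips are shown because HLA-B and HLA-C are alike there. The first 30 bases of exon 3 of each gene, read from GENCODE v29 transcripts on the strand of the gene, follow, with differing bases in capitals. HLA-B exon 3 lies at chr6:31356167-31356442 and HLA-C exon 3 at chr6:31271073-31271348, both on the minus strand.
HLA-B exon 3: ggtctcacaccctccagagCatgtACggct
HLA-C exon 3: ggtctcacaccctccagagGatgtCTggct
The stretches differed at 3 of 30 bases, and over the whole exon the genes differed at 17 of 276 bases and were 93.8% identical. These are reference alleles, not read from A549, and for reads that match both genes the rule of assignment is not stated. HLA-B-258, an annotated HLA-B transcript, has 1 of its 3 exons within HLA-C. Along the HLA-B transcript 2.54% of windows of 50 bases were found in another gene, and none of 100 bases.

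Both HLA-F events shared a background junction from HLA-F exon 5 at 6:29725563 to exon 6 of HLA-G at 6:29830378, with 104814 bp between. HLA-G is another non-classical class I gene. The examined junction from exon 5 to exon 6 (ending at 6:29726011) had a PSI of 25.5% and 20.0% in wild type and of 13.5% and 61.4% in knockdown. That from exon 6 to exon 7 (6:29726043 to 6:29726403) had a PSI of 20.0%, 13.3%, 14.7% and 40.0% in the same order. This junction shares no splice site with the background junction, so its PSI is not a choice between alternative ends. In both events, knockdown replicate 2 was high and knockdown replicate 1 was below or within the wild-type values, so the groups overlapped. The differences were 14.7 percentage points (SE 15.8, limma adjusted p = 0.594) and 10.7 percentage points (SE 11.1, limma adjusted p = 0.578). Without knockdown replicate 2 both changed direction, to -9.23 and -2.00 percentage points.

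Exon 6 of HLA-F, at chr6:29726011-29726043, and exon 6 of HLA-G, at chr6:29830378-29830410, are the alternative ends of the junctions that start at 6:29725563. Both exons are shown whole on the plus strand, with differing bases in capitals.
HLA-F exon 6: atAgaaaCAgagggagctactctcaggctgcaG
HLA-G exon 6: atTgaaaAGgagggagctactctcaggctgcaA
They differed at 4 of 33 bases. Read counts behind each PSI were not given, so the depth of these values is unknown.

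**Figure D4:**
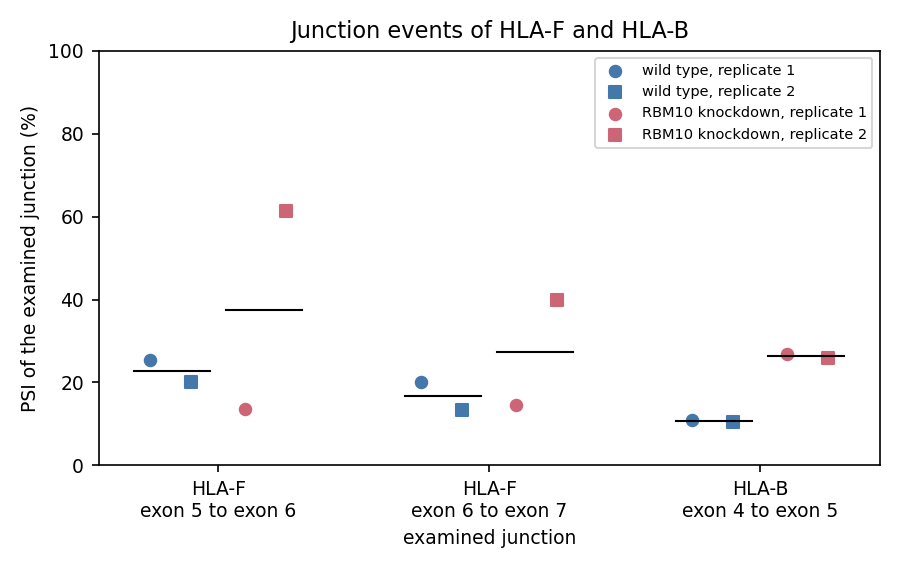
PSI in percent of the examined junction in the 3 events of HLA-F and HLA-B, with 1 point per library (circles replicate 1, squares replicate 2, blue wild type, red RBM10 knockdown) and a black line at each group mean. In HLA-B both knockdown libraries (26.9 and 26.0) lie above both wild-type libraries (11.0 and 10.4), and in HLA-F knockdown replicate 2 lies apart at 61.4 and 40.0.

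The other 7 class I genes had no event in the splicing table. Of 19 related genes read for events (PSMB8, PSMB9, PSMB10, ERAP1, ERAP2, TAPBPL and 13 promoter regulators), 3 were in it, NFYA, CREB1 and NFYB, with 4 events in all. None of the 4 had an unadjusted p under 0.05 with a difference of 0.1 or more.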

How the data were processed

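Poly-A RNA of A549 cells was read in 4 libraries, 2 RBM10 wild type and 2 RBM10 knockdown. The authors deposited gene expression values that have the form of RPKM, a unit inferred from the values and not written in the file. Relative depth was taken from the most frequent ratio of low values between libraries. The authors deposited PSI values between 0 and 1, each a fraction, in a second table, per the file headers. Per the submitters' processing notes, STAR 2.6.1 and hg38 were used. For the counter, the annotation and the use of strand nothing is stated.

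Expression was tested by limma 3.58.1 (R 4.3.3, moderated two-sided test, variance trend) on log2(RPKM + 1). Genes entered if either group mean reached 1 RPKM. The pseudocount means that fold changes of low genes are understated. PSI fractions were tested with limma in the 3744 events with all values. Standard deviations and n refer to libraries. The limma test was first tested on simulated data. An ID table named 16921 genes and GENCODE v29 another 85, which left 35 unnamed. Positions and transcripts came from GENCODE v29, promoters from RefSeq.

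The genes, the lists and the tests were chosen with earlier results of these data known, and the motifs with the sequences in view. Genes named beside the 9 were up to 5 of each list past the test with the largest change, the 2 most abundant where fewer than 2 passed, and the 5 nearest profiles. Markers and PSMB8, as a neighbour of TAP1, were named as well. Replicate numbers were not taken to pair libraries. Same-numbered libraries tended to deviate in opposite directions in expression (correlation of deviations -0.44) and showed little relation in PSI (-0.04). The main test does not model this, and a crossed pairing is given below. Alternatives covered the pseudocount, the filter, scaling, trend, a replicate block and leaving out each library.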

Additional observations from a re-analysis of the deposited data

How the results depend on the processing

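HLA-B and HLA-E were called higher in 14 of 15 settings each. With no filter on low values 0 of the 9 genes were called (1546 genes called over the table, against 2271), with adjusted p values of 0.0508 and 0.0517 for these genes. Leaving out each library in turn gave 2 called genes each time (lowest 2, highest 2). In these fits 1 group has a single library, which is assumed to vary like the other group, so they say little about stability. With a replicate block 2 genes were called, among 1718 over the table, and no call of a class I gene changed. Under the block POMP (adjusted p = 0.0798), PSME3 (adjusted p = 0.183) and ATF1 (adjusted p = 0.0694) did not pass, which leaves 2 called genes for peptide supply and 0 for promoter regulators. The crossed pairing, chosen after seeing the data, gave 4 called genes (HLA-B, HLA-C, HLA-E and B2M) among 4196 over the table. No PSI event of the genes was called in any setting, while the number called over the table went from 4 to 62 with the replicate block and to 0 without any library. Calls split as 1224 higher and 322 lower with no filter, and as 796 and 627 with a filter of 5 RPKM.

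Changes near 0 turned direction in 4 genes named above. GANAB was at 0.10 with quantile and 0.099 with cyclic loess normalization, and between -0.041 and 0.038 with a library left out (0.038 without wild-type replicate 1, 0.013 without knockdown replicate 1). USF2 was at -0.022 with median centring and between -0.047 (without wild-type replicate 1) and 0.15 with a library left out, and RFXANK between -0.30 and 0.073 (without wild-type replicate 2). HLA-DMA was at -0.19 with quantile normalization, -0.17 with cyclic loess, -0.072 with median centring and -0.071 without wild-type replicate 2, with a range of -0.12 (without knockdown replicate 2) to 0.13 with a library left out. The PSI differences of HLA-F were -0.0923 and -0.0200 as fractions without knockdown replicate 2 and 0.386 and 0.233 without knockdown replicate 1. The cause was not tested.

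With 2 libraries a group, the intervals of the 5 tested class I genes that did not pass hold 0. Depth in counts is unknown, so no counting error was given, and TAP2 and NLRC5 lie at levels where few reads are expected.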
